A study of Mus musculus with 21 samples.

Results

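The comparison described here is the effect of the PS19 tau transgene pooled over 3 APOE lines. All 12 PS19 mice (4 PS/E2H, 4 PS/E3H and 4 PS/E4H) were compared with all 9 parental mice (3 E2H, 3 E3H and 3 E4H), with the APOE line as a covariate, so all 21 mice of the study entered the fit. Messenger RNA was sequenced from whole forebrain. Every mouse, parental mice included, was homozygous for a human APOE allele that replaced mouse Apoe: APOE2 in E2H, APOE3 in E3H and APOE4 in E4H. The PS19 mice also carried, on 1 chromosome copy, a human tau transgene with the P301S mutation driven by the mouse Prnp (prion protein) promoter. Parental mice were 9 to 10 months old, whereas PS19 mice were aged until both hindlimbs were paralysed. The tau transgene, paralysis and age at death therefore cannot be told apart in this comparison, nor can strain segments that the PS19 parent brought into the crosses.

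Tau is a microtubule-associated protein of axons, and its P301S form aggregates in neurons and leads to loss of synapses and of neurons in this mouse line. Excitatory (glutamatergic) projection neurons of cortex and hippocampus signal through AMPA, NMDA and metabotropic glutamate receptors held in a postsynaptic scaffold, and inhibitory (GABAergic) interneurons restrain them. Calcium entering through receptors and voltage-gated channels switches on immediate early genes, and neurons and glia also make the cholesterol that membranes and synapses need. In whole forebrain RNA, fewer cells of a type and less RNA per cell cannot be told apart.

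In the pooled fit, 22863 genes were tested, and 2202 of them (9.63%) were lower and 2604 (11.4%) higher in PS19 mice at an adjusted p below 0.05 (a call). Without the E3H line 890 were lower and 1417 higher, and without the E4H line 535 and 1129. Of the 2202 lowered genes, 868 (39.4%) were still called lower without the E3H and 516 (23.4%) without the E4H line. Log2 fold changes are given ± SE from this fit (12 PS19 and 9 parental mice), and 95% intervals are those of single genes before adjustment. The median log2 fold change over all tested genes was -0.01. The lowered genes moved little: their median log2 fold change was -0.28, with the 10th and 90th percentiles at -0.68 and -0.16, and 81.2% of them changed by less than 0.5 on the log2 scale, against 55.8% of the raised genes. With a limit of 2-fold added, 84 genes (0.367%) were lower and 511 (2.24%) higher. These counts changed with the method: 168 genes were lower past 2-fold by limma-voom, 15 lower and 301 higher with at least 1 CPM required in 9 mice, and 4 lower and 79 higher by limma on log2(FPKM + 1). The lowest and highest mouse of the 2 genotypes did not overlap for 34 lower genes (0.149% of those tested) and for 315 higher genes (1.38%).

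Pooling widened what could be called. Within single lines (7 mice each) the calls numbered 120 lower (0.525%) and 437 higher (1.91%) in E2H, 388 lower (1.7%) and 705 higher (3.08%) in E3H, and 1196 lower (5.23%) and 1653 higher (7.23%) in E4H. Leaving out single mice took the lowered counts to 37 to 156 in E2H, 50 to 690 in E3H and 296 to 1426 in E4H, so the range of E3H overlapped those of E2H and of E4H. The lowest came without E2H replicate 3, E3H replicate 1 and E4H replicate 2. Among the 2202 genes lowered in the pooled fit, 1075 (48.8%) were called lower in none of the single lines, 819 in 1 line, 281 in 2 lines and 27 in all 3. For genes with a mean of at least 10 CPM (counts scaled to library size), the median SE of the log2 fold change was 0.06 in the pooled fit and 0.10 within a line. No gene had a tau effect that differed between the lines at an adjusted p below 0.05 (edgeR interaction test, smallest adjusted p = 0.17). Without adjustment 1735 of 22863 genes were below 0.05, limma-voom called 0 genes, and DESeq2's likelihood-ratio test called 74.

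Libraries held 59265459 to 72693566 counts in PS19 mice (median 61352387) and 60394625 to 75932183 in parental mice (median 72854467), so depth moved with genotype. With log2 library size as a further covariate, 901 genes were lower and 1427 higher. When libraries were scaled to equal levels of 20 pan-neuronal genes, the calls became 622 lower and 5025 higher and the median of all genes moved to 0.11. Falls are therefore reported relative to all genes unless stated otherwise. On the first principal component, PS19 mice scored 0.73 to 49.3 and parental mice -55.5 to -14.2, with PS/E3H replicate 1 nearest to the parental mice. E2H replicate 2 and PS/E2H replicates 2 and 4 lay apart on the second component, and without them 2796 genes were lower and 3278 higher. Xist was at 2.54 to 2.89 CPM and Y-linked Ddx3y at 43.0 to 65.3 CPM in 4 libraries (E4H replicate 3, PS/E2H replicate 2, PS/E4H replicates 1 and 4), and the other 17 had Xist at 205 to 483 CPM and Ddx3y at 0.341 CPM or less. By cohort, they equal in number the mice that the methods describe as female, whereas Ddx3y is a gene of the Y chromosome. Without these 4 libraries, 1581 genes were lower and 2041 higher.

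No value of the human transgene itself was used here, and whether its reads add to the Prnp count below was not tested. Prnp, whose promoter drives the transgene, was at 818 to 1072 CPM (median 886) in parental and 1391 to 1928 CPM (median 1708) in PS19 mice, with no overlap (0.90 ± 0.06 log2, adjusted p = 4.25e-10). Mouse Mapt, the endogenous tau gene, was at 425 to 505 CPM (median 478) and 420.2 to 504 CPM (median 459.6) (log2 fold change -0.06 ± 0.04, 95% interval -0.14 to 0.02, not called). Mouse Apoe, replaced in every mouse, was at 11.2 to 15.8 CPM (median 13.2) and 9.83 to 16.5 CPM (median 13.9) and was not called (adjusted p = 0.796).

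**Figure D1:**
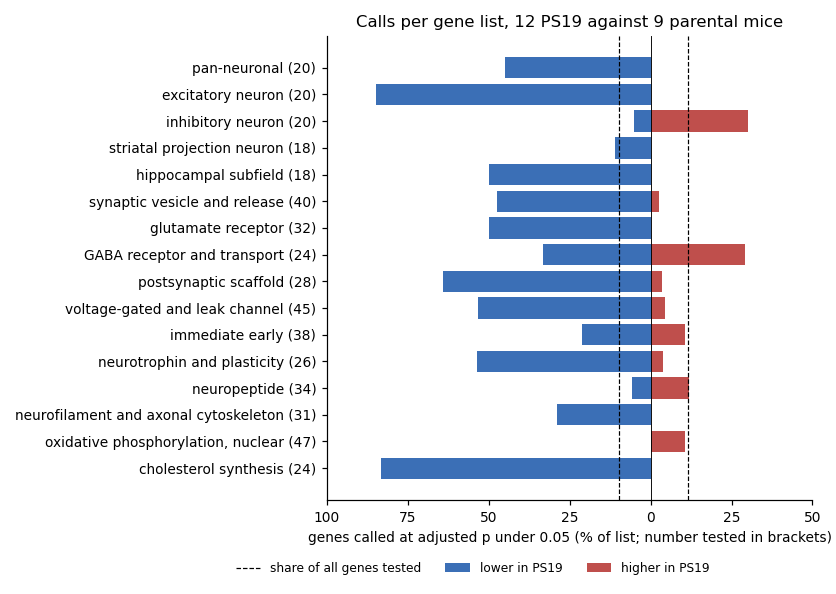
Share of each gene list called lower (blue, to the left) or higher (red, to the right) in 12 PS19 against 9 parental mice, in percent of the members tested, whose number stands in brackets. Dashed lines mark the shares over all 22863 genes, 9.63% lower and 11.4% higher; the excitatory neuron (17 of 20) and cholesterol synthesis (20 of 24) lists reach farthest to the left.

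Genes that mark excitatory neurons fell most often among the neuronal lists. Of 20 genes listed, 17 fell and 0 rose (median log2 fold change -0.27), against 9.63% lower and a median of -0.01 over all genes. Their summed level was 5213 to 6534 CPM in the parental and 4091 to 6220 CPM in the PS19 mice. By line the list's median was -0.14, -0.33 and -0.42 in E2H, E3H and E4H, with 19, 18 and 18 members below 0. Neurod6, a transcription factor of differentiated cortical and hippocampal excitatory neurons, was at 59.5 to 78.1 CPM (median 65.8) in parental and 32.2 to 59.6 CPM (median 39.7) in PS19 mice. In PS/E3H mice it was 59.6, 32.5, 38.7 and 32.8 CPM, and the first of these was the only PS19 value inside the parental range (log2 fold change -0.69 ± 0.11, adjusted p = 5.44e-05). Its relative Neurod1 was at 9.86 to 13.7 CPM (median 11.8) and 7.02 to 9.71 CPM (median 8.12), without overlap (-0.51 ± 0.08 log2, adjusted p = 3.95e-05). Kcnv1, a modulatory potassium channel subunit, was at 65.0 to 90.1 CPM (median 72.3) and 44.4 to 72.0 CPM (median 49.2), with 11 of 12 PS19 mice below every parental mouse (adjusted p = 8.7e-05). The cortical transcription factors Tbr1, Bcl11b and Fezf2 fell (log2 values -0.35, -0.34 and -0.30), at adjusted p = 0.00151, 0.000513 and 0.037. Abundant markers fell too. Camk2a, the synaptic calcium/calmodulin kinase, fell by 0.32 ± 0.08 (adjusted p = 0.00494), and Slc17a7, the cortical vesicular glutamate transporter VGLUT1, fell by 0.26 ± 0.09 (adjusted p = 0.0355). Slc17a7 was not called in 19 of the 42 alternative settings, 13 of which left out a single mouse. Slc17a6 (VGLUT2), used mainly by subcortical excitatory neurons, was not called, at 50.4 to 122 CPM (median 83.8) and 70.4 to 109 CPM (median 86.6) (95% interval -0.05 to 0.43). The count of lowered genes was 6 with libraries scaled to the pan-neuronal genes, 5 with log2 library size as a covariate, 7 without the E3H line, 5 without the E4H line and 10 without the 4 libraries with Ddx3y. Over all genes, 622, 901, 890, 535 and 1581 were lower in these settings, in that order, against 2202 in the main fit. Leaving out a single mouse took the count for this list to 10 (E3H replicate 1 or 3) or 8 (E4H replicate 2). E4H replicate 2 had the highest mean log2 CPM of this list among all 21 mice, 0.13 above the parental mean. On the same scale its hypothalamus list was at -1.30 and its thalamus list at -0.72. The hypothalamic peptide gene Pmch was at 0.319 CPM in it and 18.5 to 37.9 CPM in the other parental mice. Whether its tissue content bears on the count was not tested.

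**Figure D2:**
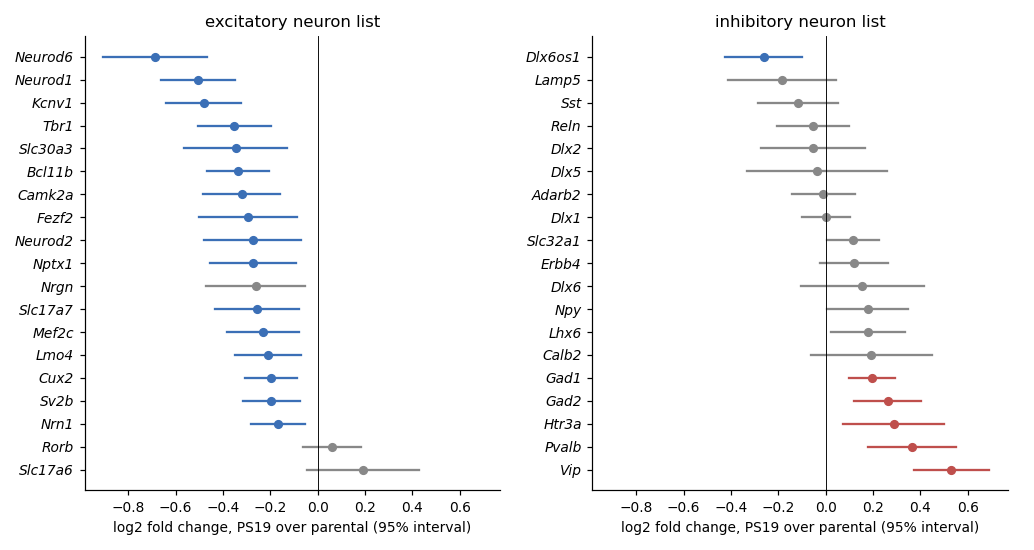
Log2 fold change, PS19 over parental mice, of 19 excitatory (left) and 19 inhibitory (right) neuron genes, each with its 95% interval from the pooled edgeR fit over 21 mice. Blue points were called lower, red points higher and grey points not called; 16 of the excitatory genes shown are blue, and 5 of the inhibitory genes shown are red with 1 blue.

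Inhibitory neuron genes were called lower at a share of 5.0% and higher at a share of 30.0%. Of 20 tested, 6 rose and 1 fell (median 0.14 log2), beside 11.4% higher and 9.63% lower over all genes, and the summed level was 1746 to 1823 CPM in the parental and 1805 to 2116 CPM in the PS19 mice. Htr3a, the ionotropic serotonin receptor of a class of interneurons, rose by 0.29 (adjusted p = 0.0497). Vip, the peptide of a disinhibitory interneuron class, was at 26.8 to 39.4 CPM (median 29.9) and 38.1 to 53.5 CPM (median 43.6), with 9 of 12 PS19 mice above every parental mouse (0.53 ± 0.08 log2, adjusted p = 2.94e-05). The GABA-synthesising enzymes rose as well. Gad1 was at 432 to 499 CPM (median 463) in parental and 458 to 612 CPM (median 538) in PS19 mice (adjusted p = 0.00391), and Gad2 at 181 to 239.9 CPM (median 214) and 199 to 309 CPM (median 257) (adjusted p = 0.00886). Their ranges overlapped, with 9 and 7 PS19 mice above all parental mice. Pvalb, the calcium buffer of fast-spiking interneurons, rose by 0.36 in the pooled fit (adjusted p = 0.00496), but its estimates were -0.0025 in the E2H, 0.58 in the E3H and 0.53 in the E4H line, and its parental mice spread from 43.0 to 93.4 CPM around the 59.1 to 89.2 CPM of the PS19 mice. Sst (95% interval -0.28 to 0.05), Npy (95% interval 0.01 to 0.35) and the vesicular GABA transporter Slc32a1 (95% interval 0.01 to 0.23) were not called. The 1 fall was the long non-coding RNA Dlx6os1 (-0.26, adjusted p = 0.0196). The count of 6 raised genes dropped to 1 without the E4H line and to 3 without the E3H line. With libraries scaled to the pan-neuronal genes it was 9. Over all genes, 1129, 1417 and 5025 were higher in these settings, in that order, against 2604 in the main fit. The difference between the excitatory and inhibitory lists was not tested.

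Other neuron classes differed in the share of genes called. Of 20 pan-neuronal genes, 9 fell and 0 rose (median -0.13). Snap25, the membrane SNARE of transmitter release, was at 2258 to 2560 CPM (median 2330) in parental and 1929 to 2334 CPM (median 2010) in PS19 mice (adjusted p = 0.00171), and the synaptic vesicle phosphoprotein gene Syn1 at 429.9 to 572 CPM (median 524) and 359.9 to 554 CPM (median 425) (adjusted p = 0.00307). Syt1, the calcium sensor of release, and the reticulon Rtn1 had log2 fold changes of -0.16 (adjusted p = 0.0167) and -0.19 (adjusted p = 0.00532). Rbfox3, which encodes the neuronal nuclear antigen NeuN, was not called, at 165 to 204 CPM (median 188) and 139 to 219 CPM (median 165) (95% interval -0.28 to 0.00). Only 1 pan-neuronal gene was called lower without the E4H line, and 3 were without the E3H line or with log2 library size as a covariate. Over all genes, 535, 890 and 901 were lower in these settings, in that order. Among 18 genes of striatal projection neurons 2 fell and 0 rose, close to the share over all genes. Those 2 were the phosphatase Ptpn5 (-0.18, adjusted p = 0.00452) and the adenylyl cyclase Adcy5 (-0.17, adjusted p = 0.0409). Gnal, the olfactory-type G protein of striatum, and the adenosine receptor Adora2a had log2 fold changes of -0.16 (adjusted p = 0.0504) and -0.06 (adjusted p = 0.803). The dopamine receptors Drd1 (95% interval -0.39 to 0.02) and Drd2 (95% interval -0.19 to 0.24) were not called. Of 18 genes of hippocampal subfields, 9 fell and 0 rose (median -0.28). Lct, the lactase gene, used as a dentate granule cell marker, showed the deepest fall in this list: 4.33 to 6.97 CPM (median 5.06) in parental and 1.002 to 4.53 CPM (median 2.24) in PS19 mice, with 11 of 12 PS19 mice below all parental mice (-1.13 ± 0.20 log2, adjusted p = 0.000227). C1ql2, a synaptic organiser that dentate granule cells release from mossy fibres, was at 8.19 to 15.6 CPM (median 9.74) and 4.06 to 9.89 CPM (median 6.98) (adjusted p = 0.000445). Tdo2, a tryptophan-degrading enzyme of dentate granule cells, was at 1.38 to 2.08 CPM (median 1.59) and 0.366 to 1.61 CPM (median 0.896) (adjusted p = 0.00328). All 3 dentate markers were low in level yet lay below the parental range in at least 10 of 12 PS19 mice. Iyd, an iodotyrosine deiodinase gene, fell by 0.94 (adjusted p = 0.00424). Prox1, the transcription factor of the same granule cells, was not called (95% interval -0.38 to -0.00), nor was the desmosome gene Dsp (95% interval -0.80 to -0.10), nor was the CA1 marker Wfs1 (95% interval -0.38 to 0.02). The calcium buffer Calb1 fell by 0.23 (adjusted p = 0.000693).

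**Figure D3:**
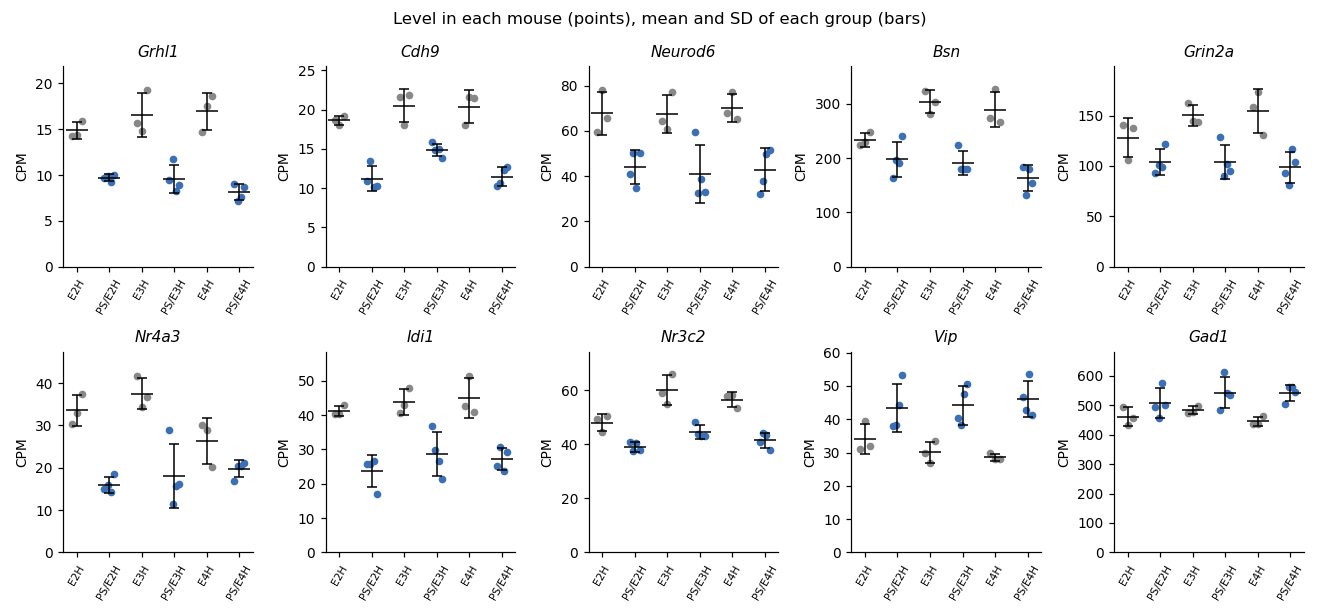
Level of 10 genes in each mouse, in CPM (vertical axes from 0), by group, with parental mice in grey and PS19 mice in blue; bars give the group mean and SD (3 parental and 4 PS19 mice a group). In Grhl1 and Cdh9 every PS19 mouse lies below every parental mouse; in Vip and Gad1 most PS19 mice lie above.

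At the presynapse, 19 of 40 vesicle and release genes (47.5%) fell and 1 (2.5%) rose (median -0.12). Over all genes, 9.63% were lower and 11.4% higher. The giant scaffold genes of the active zone had the largest falls of the list. Pclo (Piccolo) was at 105 to 221 CPM (median 186) in parental and 92.6 to 141 CPM (median 110.3) in PS19 mice (-0.61 ± 0.08 log2, adjusted p = 9.43e-06). Bsn (Bassoon) was at 224 to 327 CPM (median 274) and 133 to 241 CPM (median 180.2) (-0.58 ± 0.09, adjusted p = 3.25e-05). Both genes overlapped between genotypes, with 3 and 10 PS19 mice below all parental mice. Unc13a, the Munc13 priming factor that readies vesicles for fusion, fell by 0.48 (adjusted p = 0.000255), with estimates of -0.13 in the E2H, -0.52 in the E3H and -0.79 in the E4H line (edgeR interaction test over all genes, adjusted p = 0.481). The t-SNARE gene Stx1a fell by 0.33 (adjusted p = 0.015). The abundant vesicle membrane genes Syp (95% interval -0.10 to 0.14) and Vamp2 (95% interval -0.19 to 0.04) were not called. Sv2a, a transporter-like vesicle protein, was the only member that rose: 532 to 580.1 CPM (median 565) in parental and 596 to 672 CPM (median 633) in PS19 mice, without overlap (0.18 ± 0.03 log2, adjusted p = 7.54e-05).

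Among glutamate receptor genes, 16 of 32 fell and 0 rose (median -0.24; -0.15, -0.20 and -0.30 in the E2H, E3H and E4H lines). The NMDA receptor subunits split. Grin2a (GluN2A) was at 106 to 174 CPM (median 144) in parental and 80.9 to 128 CPM (median 100.1) in PS19 mice (-0.50 ± 0.08, adjusted p = 0.000123), and Grin2b (GluN2B) fell by 0.48 ± 0.11 (adjusted p = 0.00256). The obligatory subunit gene Grin1 was not called, at 372 to 429.8 CPM (median 407) and 329.5 to 467 CPM (median 380.4) (95% interval -0.18 to 0.07). Of the AMPA receptor genes, Gria2, whose edited subunit makes the channel tight to calcium, fell by 0.35 ± 0.06 (adjusted p = 0.000382), and Gria1 was not called (95% interval -0.25 to -0.01). Cacng8, an AMPA receptor auxiliary subunit, fell by 0.37 (adjusted p = 0.00246). Metabotropic receptors fell in the same range. Grm5 (mGluR5), coupled to calcium release, was at 132 to 189.6 CPM (median 166) and 99.3 to 153 CPM (median 121) (adjusted p = 2.92e-05), and Grm2, a presynaptic autoreceptor, at 32.5 to 43.3 CPM (median 37.1) and 18.4 to 39.1 CPM (median 25.3) (adjusted p = 0.000143).

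GABA receptor and transport genes moved both ways: 8 of 24 (33.3%) fell and 7 (29.2%) rose, beside 9.63% lower and 11.4% higher over all genes. The falls were GABA-A and GABA-B subunit genes and the anchors Gphn and Nlgn2. Gabra5, a subunit enriched in hippocampal pyramidal cells, was at 60.7 to 73.1 CPM (median 68.5) in parental and 38.2 to 69.8 CPM (median 51.3) in PS19 mice (-0.40 ± 0.09, adjusted p = 0.00249). The rises included synthesis, uptake and breakdown genes (Gad1, Gad2, Slc6a11, Slc6a13 and Abat) and the scarce receptor subunit gene Gabrr2, at 0.324 to 1.25 CPM (median 0.991) and 1.52 to 5.63 CPM (median 2.07). Slc6a13 also marks meningeal fibroblasts, whose list rose in 8 of 10 members.

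Postsynaptic scaffold genes fell in 18 of 28 cases (64.3%) and rose in 1 (3.57%), with a median of -0.23. Over all genes, 9.63% were lower and 11.4% higher. Shank2, a master scaffold under glutamate receptors, was at 83.0 to 119 CPM (median 102) in parental and 57.5 to 85.6 CPM (median 71.9) in PS19 mice (-0.46 ± 0.07, adjusted p = 7.17e-05). Homer2, which ties metabotropic receptors to Shank, was at 42.1 to 57.8 CPM (median 47.6) and 33.1 to 44.3 CPM (median 37.5) (adjusted p = 8.67e-05). Dlg4, which encodes PSD-95, fell by 0.21 (adjusted p = 0.0102). Lrrtm4, a synaptic adhesion gene, fell by 0.30 (adjusted p = 0.000398). The only rise was Homer3 (0.26, adjusted p = 0.0492).

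Of 45 voltage-gated and leak channel genes, 24 (53.3%) fell and 2 (4.44%) rose (median -0.21), beside 9.63% lower and 11.4% higher over all genes. The 2 largest falls were in calcium channel genes, Cacna1e and Cacna1h. Cacna1e, the R-type pore, was at 118 to 261 CPM (median 211) in parental and 114 to 161 CPM (median 135) in PS19 mice (-0.60 ± 0.08, adjusted p = 2.26e-05). Its parental range was wide, and 1 PS19 mouse lay below it. Cacna2d1, the auxiliary subunit that binds gabapentin, fell by 0.36 (adjusted p = 5.08e-05), and the T-type pore gene Cacna1h fell by 0.47 (adjusted p = 0.000363). Among potassium channels Kcnd2, the dendritic A-type channel Kv4.2, was at 93.2 to 120.2 CPM (median 107) and 78.1 to 99.0 CPM (median 92.5) (adjusted p = 0.000127). The 2 rises were the pacemaker channel Hcn2 (0.13, adjusted p = 0.0305) and the leak channel Kcnk1 (0.26, adjusted p = 0.000179), which astrocytes also express. Scn1a, the sodium channel of fast-spiking interneurons, was not called (95% interval -0.08 to 0.26). Without the E4H line the lowered hippocampal, vesicle, glutamate receptor, scaffold and channel genes numbered 4, 7, 9, 4 and 8. With libraries scaled to the pan-neuronal genes they numbered 5, 7, 10, 6 and 9. Over all genes, 535 were lower without the E4H line and 622 with that scaling, against 2202 in the main fit.

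Immediate early genes did not move together. Of 38 tested, 8 (21.1%) fell and 4 (10.5%) rose (median -0.18), beside 9.63% lower and 11.4% higher over all genes. The summed level overlapped between genotypes: 1640 to 2547 CPM in the parental and 1619 to 2496 CPM in the PS19 mice. The median was -0.23, -0.22 and 0.16 in the E2H, E3H and E4H lines, and the count of falls was 4 with log2 library size as a covariate and 4 without the E3H line. Over all genes, 901 and 890 were lower in these settings. The falls included nuclear receptor and zinc finger factors. Nr4a3 was at 20.1 to 41.6 CPM (median 33.0) in parental and 11.5 to 29.0 CPM (median 16.4) in PS19 mice, with 8 of 12 below all parental mice (-0.85 ± 0.13, adjusted p = 5.35e-05). Klf10 was at 20.1 to 33.1 CPM (median 28.4) and 9.29 to 25.6 CPM (median 14.6) (adjusted p = 0.000176). Egr1 fell by 0.66 ± 0.18 (adjusted p = 0.00936) and Egr3 fell by 0.54 ± 0.13 (adjusted p = 0.00428). The classical activity reporters Fos, Arc and Npas4 were not called, and their intervals were wide: 9.01 to 43.4 CPM (median 23.3) against 9.69 to 50.2 CPM (median 20.6) for Fos (95% interval -0.72 to 0.52), 95% interval -0.93 to 0.24 for Arc and 95% interval -0.65 to 0.32 for Npas4. The estimates for Fos were -0.997 in the E2H, -0.05 in the E3H and 0.82 in the E4H line, of both signs, and none of them was called. Nr4a2, a further nuclear receptor, fell by 0.44 (adjusted p = 0.00674). Maff, a small Maf factor, was at 0.739 to 2.27 CPM (median 1.101) and 2.06 to 14.4 CPM (median 2.94) (adjusted p = 0.000291), and the other rises were Gadd45g (0.67, adjusted p = 1.93e-05), Jun (0.28, adjusted p = 0.000485) and the granin Scg2 (0.39, adjusted p = 0.000116).

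Neurotrophin and plasticity genes fell in 14 of 26 cases (53.8%, median -0.22), beside 9.63% lower over all genes. The count of falls was 7 with libraries scaled to the pan-neuronal genes, 5 with log2 library size as a covariate, 8 without the E3H line and 4 without the E4H line. Over all genes, 622, 901, 890 and 535 were lower in these settings, in that order. Ntf3, the growth factor neurotrophin-3, was at 1.86 to 2.70 CPM (median 2.31) in parental and 0.404 to 2.17 CPM (median 1.16) in PS19 mice (-0.93 ± 0.21, adjusted p = 0.00231). The dendritic kinase gene Itpka fell by 0.45 (adjusted p = 0.00976). Crtc1, a CREB coactivator, fell by 0.35 (adjusted p = 0.000273). Bdnf, the ligand of TrkB, was not called (95% interval -0.37 to -0.01), whereas Ntrk2, the TrkB gene, which astrocytes express too, rose and was at 506 to 605 CPM (median 538) and 558 to 779.9 CPM (median 736) (adjusted p = 2.83e-05). Of 31 neurofilament and axonal cytoskeleton genes, 9 (29.0%) fell and 0 rose. Map1b and Map1a, microtubule-associated proteins like tau, fell, at log2 values of -0.39 (adjusted p = 0.000176) and -0.31 (adjusted p = 0.000904), and the axonal kinesin Kif5a fell by 0.30 (adjusted p = 0.000585). The neurofilament genes Nefl (95% interval -0.12 to 0.04), Nefm (95% interval -0.21 to 0.03) and Nefh (95% interval 0.00 to 0.28) were not called. Neuropeptide genes rose in 4 and fell in 2 of 34 cases, near the shares over all genes. Besides Vip and Scg2 the rises were the processing enzyme Cpe (0.33, adjusted p = 1.39e-05) and Pnoc (0.34, adjusted p = 0.00963), and the falls were Cck (-0.32, adjusted p = 0.024) and Grp (-0.57, adjusted p = 0.00276). Nuclear genes of oxidative phosphorylation rose in 5 of 47 cases and fell in 0 (median 0.10), a share of 10.6% beside the 11.4% raised over all genes. The median was -0.05 in the E2H line, with 35 of 47 members below 0, and 0.13 and 0.19 in the E3H and E4H lines, with 2 and 1 below 0. The rises included the complex I gene Ndufa9 (0.22, adjusted p = 0.00392) and the ATP synthase gene Atp5a1 (0.18, adjusted p = 0.0107). The count of rises was 24 without E2H replicate 2, the mouse with the highest mean level, 12 without PS/E2H replicate 3, 3 without E2H or E4H replicate 1, 2 without E2H replicate 3 or E4H replicate 2, and 0 without the E3H or the E4H line.

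**Figure D4:**
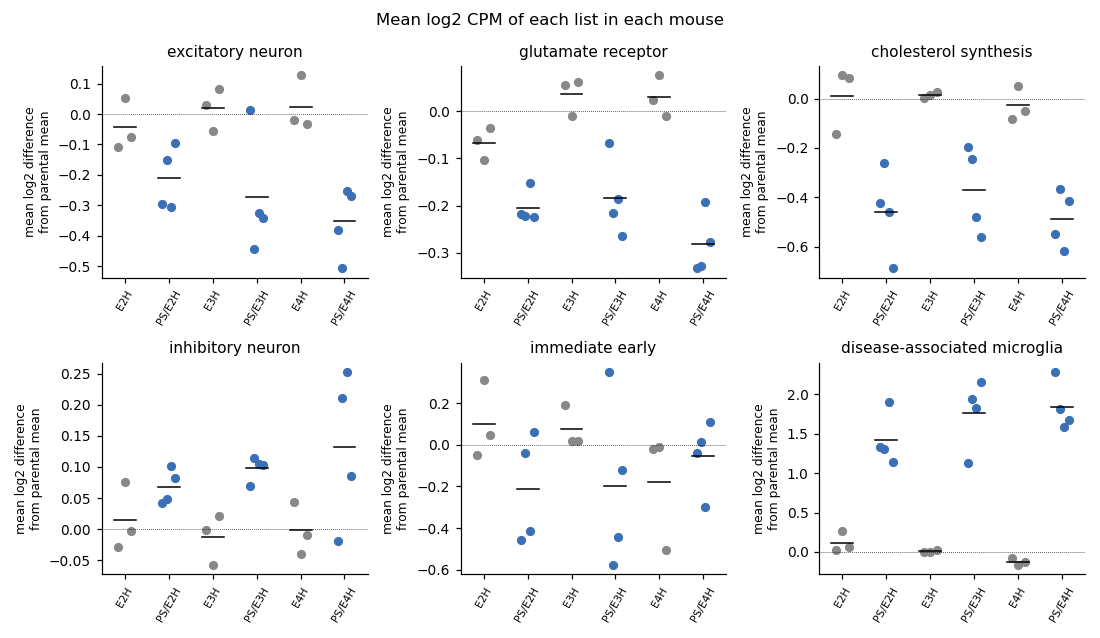
Mean log2 CPM of 6 gene lists in each mouse (points), as the difference from the mean over the 9 parental mice, with group means as bars; parental mice are grey and PS19 mice blue. All 12 PS19 mice lie below all parental mice for cholesterol synthesis (-0.69 to -0.20 against -0.14 to 0.09), 10 of 12 do for the excitatory list, and the immediate early list overlaps.

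Most cholesterol synthesis genes fell, and the list's median was similar in the 3 lines. Of 24 genes, 20 fell and 0 rose, the median was -0.43 (-0.46, -0.42 and -0.47 in the E2H, E3H and E4H lines), and 6 members did not overlap between the genotypes. Over all genes tested 9.63% were called lower, and 0.149% were lower without overlap. The summed level was 1385 to 1645 CPM in the parental and 938 to 1351 CPM in the PS19 mice. The count stayed between 17 and 21 of 24 in every alternative run, 19 with libraries scaled to the pan-neuronal genes. Srebf2 encodes the transcription factor that turns the pathway on when sterols are scarce, and was at 189 to 232 CPM (median 212) in parental and 134 to 197 CPM (median 158) in PS19 mice (-0.43 ± 0.06, adjusted p = 6.37e-06). Insig1, which retains that factor in the endoplasmic reticulum and is itself a target of it, was at 70.4 to 84.7 CPM (median 76.6) and 41.9 to 64.2 CPM (median 52.1) without overlap (-0.56 ± 0.06, adjusted p = 6.89e-07). Among early steps, Hmgcs1, the HMG-CoA synthase, was at 207 to 291 CPM (median 252) and 113 to 222 CPM (median 163) (adjusted p = 3.36e-06). Idi1, the isoprenoid isomerase, was at 25.7, 25.7, 26.5 and 16.9 CPM in PS/E2H, 36.9, 29.9, 26.7 and 21.5 CPM in PS/E3H and 25.2, 30.6, 23.8 and 29.3 CPM in PS/E4H mice, against 40.4 to 51.5 CPM (median 42.6) in parental mice (-0.71 ± 0.09, adjusted p = 3.66e-06). Late steps did as well. Sqle, the squalene epoxidase, was at 63.4 to 80.3 CPM (median 75.1) and 37.3 to 59.2 CPM (median 48.0) (adjusted p = 1.92e-06), and Msmo1, which removes methyl groups from sterols, at 84.8 to 111 CPM (median 100.2) and 43.1 to 75.5 CPM (median 60.3) (adjusted p = 2.57e-06). For both genes every PS19 mouse was below every parental mouse. Members not called included Ebp (95% interval -0.21 to 0.11), Pmvk (95% interval -0.13 to 0.12) and Mvk (95% interval -0.39 to -0.05).

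The promoters of 5 lowered members are shown because these genes fell together and belong to the pathway known to be driven by the factor that Srebf2 encodes. RefSeq promoter windows (GRCm38.p6, the 250 bases before the start of transcription) were at hand for 16 of the 24 genes. Capitals mark CCAAT boxes (the letters CCAAT on either strand, ATTGG when on the other strand) and, in Hmgcs1, the sterol regulatory element searched as TCACNCCAC on both strands. The windows are Srebf2 (chr15:82147019-82147268, plus strand), Hmgcs1 (chr13:119690101-119690350, plus strand), Idi1 (chr13:8885356-8885605, plus strand), Msmo1 (chr8:64733579-64733828, minus strand) and Insig1 (chr5:28071162-28071411, plus strand), each printed along the gene's own strand.

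Srebf2: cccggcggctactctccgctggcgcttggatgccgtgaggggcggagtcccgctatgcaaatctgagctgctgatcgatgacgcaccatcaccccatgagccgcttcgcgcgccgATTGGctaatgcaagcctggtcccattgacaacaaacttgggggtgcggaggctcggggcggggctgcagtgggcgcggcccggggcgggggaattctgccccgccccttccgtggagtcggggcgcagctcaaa
Hmgcs1: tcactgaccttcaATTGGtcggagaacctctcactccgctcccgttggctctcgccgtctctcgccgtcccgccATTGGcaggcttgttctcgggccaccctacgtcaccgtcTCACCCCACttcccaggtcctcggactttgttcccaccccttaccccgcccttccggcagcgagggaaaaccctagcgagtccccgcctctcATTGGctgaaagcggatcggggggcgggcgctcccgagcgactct
Idi1: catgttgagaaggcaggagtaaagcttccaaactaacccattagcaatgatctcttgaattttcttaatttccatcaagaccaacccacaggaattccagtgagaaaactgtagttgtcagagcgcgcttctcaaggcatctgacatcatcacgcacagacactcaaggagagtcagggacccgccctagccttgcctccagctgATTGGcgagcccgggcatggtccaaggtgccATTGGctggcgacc
Msmo1: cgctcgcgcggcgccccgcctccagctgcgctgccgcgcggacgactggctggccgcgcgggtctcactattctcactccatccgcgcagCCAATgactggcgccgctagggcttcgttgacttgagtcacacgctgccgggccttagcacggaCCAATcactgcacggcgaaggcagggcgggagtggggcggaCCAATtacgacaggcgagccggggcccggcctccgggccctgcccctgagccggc
Insig1: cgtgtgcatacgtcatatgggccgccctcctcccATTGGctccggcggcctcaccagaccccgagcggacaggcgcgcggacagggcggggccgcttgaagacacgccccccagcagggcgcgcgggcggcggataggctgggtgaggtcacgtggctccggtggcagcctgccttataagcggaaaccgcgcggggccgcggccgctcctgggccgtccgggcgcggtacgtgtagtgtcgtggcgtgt

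TCACNCCAC stood in the windows of 1 of the 16 genes, against 1.05% of 32851 windows genome-wide and 1.26% of the tested genes with a window. The shorter CACNCCAC, which it contains, stood in 2 of 16, against 5.29% of windows and 6.71% of those tested genes. CCAAT, searched after these, stood in at least 1 window of all 16 genes, the uncalled Ebp, Mvk and Pmvk included, against 33.8% of all windows and 39.4% of the tested genes with a window. Among genes called lower and higher the shares with CCAAT were 37.7% and 38.7%. These matches describe letters in a window and are not measured binding.

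Most of the falls with the smallest adjusted p were genes outside the lists. Grhl1 (chr12:24572283-24617391 in GRCm38, gene bounds of GENCODE M21), a grainyhead-like transcription factor gene, was at 14.3 to 19.3 CPM (median 15.7) in parental and 7.18 to 11.8 CPM (median 9.11) in PS19 mice, without overlap (-0.82 ± 0.08, adjusted p = 1.79e-07). Its estimates were -0.62 in the E2H, -0.79 in the E3H and -1.06 in the E4H line. Cdh9 (chr15:16728756-16857094), a cadherin that builds synapses between dentate and CA3 neurons, was at 18.0 to 21.9 CPM (median 19.2) and 10.2 to 15.8 CPM (median 12.5) (-0.67 ± 0.07, adjusted p = 3.49e-07). Hace1, a ubiquitin ligase, fell by 0.44 (adjusted p = 4.26e-07), the potassium channel tetramerisation-domain gene Kctd4 fell by 0.69 (adjusted p = 4.69e-07), and Syt17, a synaptotagmin family gene, fell by 0.77 (adjusted p = 5.01e-07). The zinc finger gene Zfp831 fell by 0.75 (adjusted p = 6.38e-07), Fgf13, an intracellular partner of sodium channels, fell by 0.44 (adjusted p = 1.04e-06), and the neuronal polo-like kinase Plk5 fell by 0.81 (adjusted p = 1.24e-06). In each of these 6 genes all 12 PS19 mice were below all 9 parental mice. Nr3c2 (chr8:76899442-77245012), the mineralocorticoid receptor of hippocampal neurons, was at 44.5 to 66.1 CPM (median 54.9) and 37.3 to 48.2 CPM (median 41.9) (-0.39 ± 0.04, adjusted p = 1.3e-06), and Arhgap33, a GTPase-activating protein gene, fell by 0.54 (adjusted p = 2.35e-06). Nr3c1, the glucocorticoid receptor, was not called (95% interval -0.24 to -0.03). Rian, a maternally expressed non-coding RNA of the imprinted cluster on chromosome 12, chosen after its values were seen, was at 521 to 742 CPM (median 694) and 452 to 591 CPM (median 499) (adjusted p = 7.22e-06).

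Among genes with a mean of at least 1 CPM and 1 sign in all 3 lines, the largest falls were mostly in scarce transcripts. Krt2, a keratin gene, was at 1.35 to 2.79 CPM (median 1.63) in parental and 0.233 to 1.14 CPM (median 0.517) in PS19 mice, without overlap (-1.70 ± 0.23, adjusted p = 1.22e-05). Tnfrsf25, a death-domain receptor gene, was at 0.972 to 3.68 CPM (median 2.55) and 0.297 to 1.43 CPM (median 0.702) (adjusted p = 0.000145). L3mbtl1, a chromatin reader gene, fell by 0.99 ± 0.12 (adjusted p = 4.75e-06). Beside Lct, the other members of the 12 largest such falls were Slc23a3, Vmn2r84, Muc3a, Sp4, Palm3, Pcdhga1, Mcmdc2 and Slc39a2, with log2 fold changes from -1.19 to -0.98. Pcdhga1 shares its constant exons with the other gamma protocadherins, so its count is uncertain. Sp4, a zinc finger factor, had 18.0, 1.34 and 17.2 CPM in E2H and 5.22, 7.71, 24.7 and 5.20 CPM in PS/E3H mice. It was thus low in 2 parental mice (E2H replicate 2 and E4H replicate 3, at 5.34 CPM) and within the parental range in every PS19 mouse, and 27 of the 42 alternative settings did not call it (adjusted p = 0.0389).

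The raised genes are given for contrast, since markers of other cells moved with the falls. Gfap, the astrocyte filament gene, was at 197 to 336 CPM (median 237) in parental and 968 to 2482 CPM (median 1704) in PS19 mice (2.68 ± 0.14, adjusted p = 2.26e-11). Itgax, a marker of disease-associated microglia, was at 0.565 to 1.36 CPM (median 1.06) and 9.43 to 39.0 CPM (median 20.1) (adjusted p = 5.44e-11), and Cst7, a cystatin of the same state, at 0.178 to 1.22 CPM (median 0.292) and 8.34 to 23.8 CPM (median 11.9) (adjusted p = 5.22e-10). The complement genes C1qa, C1qb and C4b rose, at log2 values of 1.84, 1.59 and 2.34 (adjusted p = 5.41e-10, 1.35e-09 and 1.35e-09). In the disease-associated microglia list 23 of 23 members rose, with summed levels of 2865 to 4288 CPM in the parental and 4130 to 6740 CPM in the PS19 mice. In the astrocyte list 16 of 16 rose, with 6170 to 6955 CPM in the parental and 7507 to 9683 CPM in the PS19 mice. Reactive astrocyte genes rose in 15 of 18, homeostatic microglia genes in 9 of 15, and oligodendrocyte and myelin genes in 8 of 18 cases. Over all genes tested, 11.4% were higher. The first 3 homeostatic genes listed were P2ry12 (log2 fold change -0.06, adjusted p = 0.768), Tmem119 (log2 fold change 0.43, adjusted p = 0.00122) and Cx3cr1 (0.70, adjusted p = 5.69e-05). For disease-associated microglia they were Trem2 (log2 fold change 1.53, adjusted p = 2.44e-08), Tyrobp (log2 fold change 1.57, adjusted p = 1.03e-07) and Cst7 (4.93, adjusted p = 5.22e-10). The first astrocyte genes were Aldh1l1 (log2 fold change 0.50, adjusted p = 2.02e-07), Aqp4 (log2 fold change 0.82, adjusted p = 0.000494) and Slc1a2 (0.26, adjusted p = 9.77e-05), and beside Gfap the reactive genes Vim and Serpina3n had log2 fold changes of 1.67 (adjusted p = 5.12e-06) and 2.14 (adjusted p = 4.34e-07). The myelin genes included Mbp (log2 fold change 0.40, adjusted p = 0.000239) and Mog (0.23, adjusted p = 0.153). In PS/E2H replicate 4 P2ry12 was at 18.0 CPM (parental 33.4 to 47.7 CPM) and Cx3cr1 at 35.5 CPM (parental 43.1 to 52.7 CPM). Tmem119 was at 28.5 CPM, inside the parental range. The homeostatic list of this mouse averaged -0.33 log2 from the parental mean, against 0.27 to 0.79 in the other PS19 mice. Its myelin list averaged -0.58. None of the genes in these 5 lists was called lower. The part that a larger glial share of the RNA plays in the neuronal falls was not tested. The guanylate-binding protein gene Gbp2b was at 0 to 0.0640 CPM (median 0) and 1.32 to 6.36 CPM (median 3.90), and the matrix protease gene Mmp3 at 0 to 0.0640 CPM (median 0) and 0.115 to 21.1 CPM (median 0.311). Both genes passed the filter on low counts only through PS19 mice. Atp6v0d2, a proton pump subunit gene, was at 0 to 0.163 CPM (median 0.0538) and 0.135 to 5.90 CPM (median 1.56), and the transglutaminase gene Tgm1 at 0.0531 to 0.441 CPM (median 0.141) and 0.405 to 10.5 CPM (median 2.36). Lcn2, an acute-phase protein gene, reached 98.2 CPM in a PS/E3H mouse and 6.61 CPM in E2H replicate 1, beyond 4 PS19 mice.

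Genes induced by glucocorticoids and fasting rose in 18 of 20 cases (median 1.01), with summed levels of 468 to 715 CPM in the parental and 642 to 1960 CPM in the PS19 mice. Beside this count and the list counts that follow, 11.4% of all genes tested were higher. Sgk1, a kinase induced by corticosteroids, was at 60.9 to 116 CPM (median 68.0) and 57.6 to 282 CPM (median 205) (adjusted p = 0.000235). Fkbp5, a co-chaperone of the glucocorticoid receptor, was at 27.5 to 35.0 CPM (median 31.5) and 29.4 to 189.7 CPM (median 57.3) (adjusted p = 0.000694), and Tsc22d3 rose by 0.54 (adjusted p = 0.000743). Markers of other regions and cells were mixed. Oligodendrocyte precursor genes rose in 5 of 10 cases. Of the first 3 listed, Gpr17 rose (0.27, adjusted p = 0.0192), and Pdgfra (log2 fold change 0.11, adjusted p = 0.124) and Cspg4 (log2 fold change -0.02, adjusted p = 0.932) were not called. Endothelial and pericyte genes rose in 6 of 16 cases. Of the first 3 listed, Pecam1 rose (0.27, adjusted p = 0.0198), and Cldn5 (log2 fold change 0.02, adjusted p = 0.959) and Flt1 (log2 fold change -0.08, adjusted p = 0.57) were not called. The T cell receptor complex genes Cd3e, Cd3d and Cd3g were near 0 and not called, at mean levels of 0.117, 0.0157 and 0.0717 CPM in parental and 0.174, 0.0890 and 0.178 CPM in PS19 mice. The fibroblast genes were Dcn (log2 fold change 0.11, adjusted p = 0.484), Lum (log2 fold change 0.18, adjusted p = 0.415) and Col1a1 (0.78, adjusted p = 0.00621). Choroid plexus genes rose in 5 of 12 and hindbrain genes in 3 of 13 cases, hypothalamus and thalamus genes in 0 of 15 and 0 of 12. The 3 raised hindbrain and cerebellum genes were all past 2-fold, and the list median was 0.61 (0.39, 1.24 and 0.44 in the E2H, E3H and E4H lines). That list summed to 41.5 to 129 CPM in the parental and 70.6 to 155 CPM in the PS19 mice. T cell genes summed to 17.2 to 22.8 CPM in the parental and 15.8 to 23.7 CPM in the PS19 mice. Of 11 tested, 1 (9.09%) rose, Cd8b1, at mean levels of 0.00612 CPM in parental and 0.0975 CPM in PS19 mice, and the list median was 1.23 over genes mostly below 1 CPM. Cd8b1 passed the filter on low counts only through PS19 mice, so its call and this share rest partly on that filter. The choroid plexus genes Ttr, Kl and Folr1 had log2 fold changes of 0.25, 0.07 and 0.52 and were not called. The pituitary list held 1 rise (Tshb) and 1 fall (Prl) among 5 genes. Prl, the prolactin gene, was at 0 to 6.29 CPM in parental mice and, among PS19 mice, above 0 only in PS/E4H replicate 2 (2.52 CPM). Its fitted fall was larger than those named above (-4.65, 95% interval -7.14 to -2.16, adjusted p = 0.00734), at a mean below 1 CPM. The hormone genes Gh and Pomc were not called (adjusted p = 0.118 and 0.547). The hypothalamic peptides Hcrt, Pmch and Oxt, the thalamic genes Tcf7l2, Lef1 and Prkcd and the cerebellar genes Cbln1, Cbln3 and Gabra6 were not called. Red blood cell genes (Hba-a1, Hba-a2, Hbb-bs, Hbb-bt and Alas2) summed to 190.1 to 778 CPM in the parental and 29.1 to 379 CPM in the PS19 mice, and 0 of 5 were called.

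Lowered and raised genes also differed in the span of their gene bodies (GENCODE M21, introns included), which no rule above used. Of protein-coding genes in the quintile of shortest genes (up to 7.77 kb), 6.91% were lower and 14.5% higher (median log2 fold change 0.04). In the quintile of longest genes (72.9 kb and more), 18.4% were lower and 11.0% higher (median -0.04). The median span was 37.65 kb for lowered, 21.8 kb for raised and 23.6 kb for all tested protein-coding genes. The lists differed in span: the median was 232 kb for glutamate receptor and 110.5 kb for channel genes, but 14.4 kb for excitatory, 16.5 kb for inhibitory and 17.1 kb for cholesterol synthesis genes. Among 1209 long intergenic non-coding RNAs 86 (7.11%) were lower and 30 (2.48%) higher. Among 1490 processed pseudogenes 10 (0.671%) were lower and 101 (6.78%) higher. All of these shares were below the 9.63% lower and 11.4% higher over all genes tested.

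**Figure D5:**
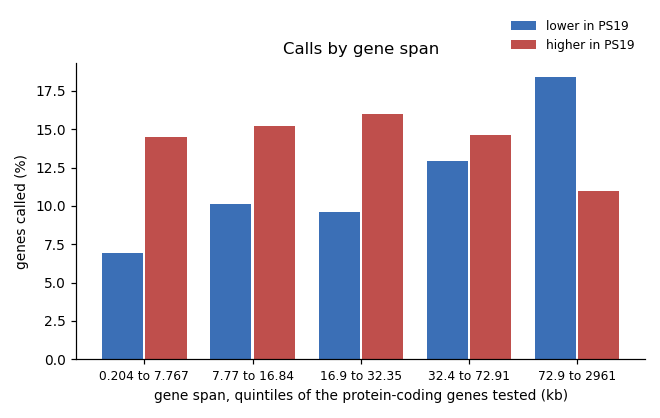
Share of protein-coding genes called lower (blue) or higher (red) in PS19 mice, in percent, by quintiles of gene span in kilobases (3343 or 3344 genes each, bars from 0). From the shortest to the longest genes the lowered share is 6.91%, 10.1%, 9.6%, 12.9% and 18.4%. The raised share is 14.5%, 15.2%, 16.0%, 14.6% and 11.0%.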

How the data were processed

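Poly(A) RNA of frozen, pulverised forebrain was sequenced as stranded paired-end libraries from 21 mice. Per the labels and methods, the authors trimmed reads with Cutadapt, mapped them with HISAT2 (GRCm38.p5 in the submitters' notes) and quantified genes with StringTie. They deposited raw counts per gene, used for all main results, and FPKM values per gene, used for alternatives. Counts were fitted with edgeR 4.0.16 (R 4.3.3), using TMM factors, filterByExpr with a minimum count of 10, and the quasi-likelihood test of genotype with APOE line as covariate. Within-line contrasts came from an edgeR fit of the 6 group means over all 21 mice. A call needed a Benjamini-Hochberg adjusted p below 0.05 over all 22863 genes tested. CPM values are counts scaled to the TMM library sizes. Limma 3.58.1 and DESeq2 1.42.0 served as alternatives, with limma run on log2(FPKM + 1) or log2(FPKM + 0.1). Of 55401 genes in the count table, 55141 were named from GENCODE M21. The deposited columns all carried a mouse's name. The fit was tested on simulated data before use.

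The members and lists were chosen with earlier results of these data known. Genes were named by rule among those with an official symbol, a mean of at least 1 CPM and 1 sign in all 3 lines: the 12 lowered with the smallest adjusted p, the 12 with the largest fall, the 8 raised with the smallest adjusted p, the 6 with the largest rise, the 3 members with the smallest adjusted p of each neuronal or metabolic list, Mapt, Prnp and Apoe, and the first 3 members of each cell type list. The following were chosen after their values were seen: Tbr1, Bcl11b, Fezf2, Pvalb, Sst, Npy, Htr3a, Dlx6os1, Iyd, Tdo2, Calb1, Wfs1, Unc13a, Stx1a, Syp, Vamp2, Grin2b, Grin1, Gria1, Gria2, Cacng8, Slc6a13, Dlg4, Homer3, Cacna1h, Hcn2, Kcnk1, Scn1a, Egr1, Egr3, Nr4a2, Klf10, Fos, Arc, Npas4, Maff, Jun, Ntf3, Itpka, Bdnf, Nefl, Nefm, Nefh, Cck, Grp, Pnoc, Idi1, Hmgcs1, Srebf2, Ebp, Mvk, Pmvk, Fkbp5, Tsc22d3, Sgk1, Nr3c1, Rian, Abat, Slc6a11, Cd8b1, Tshb, Gphn and Nlgn2. Some genes that this rule or choice would name are not reported here, though list counts, medians and summed levels include them.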

Additional observations from a re-analysis of the deposited data

Results flagged for a closer look

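Among the 144 genes named, 432 groups of 4 PS19 mice were examined, and in 39 of them (9.03%) the highest or lowest mouse stood apart from the other 3 (gap over range above Dixon's 95% limit for 4 values). Chance gives about 1 in 20 such groups, and genes are not independent. PS/E3H replicate 1 held 11 of these values, PS/E4H replicate 1 held 7 and PS/E2H replicate 4 held 6.

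PS/E3H replicate 1 lay above its group for Nr3c2 (48.2 CPM, nearest 43.8 CPM), Arhgap33 (109.7 CPM, nearest 84.3 CPM), Bsn (225 CPM, nearest 180.2 CPM), Unc13a (208 CPM, nearest 163 CPM), Vamp2 (1192 CPM, nearest 979.7 CPM), Cacng8 (34.6 CPM, nearest 23.4 CPM), Dlg4 (575 CPM, nearest 445 CPM), Npas4 (24.8 CPM, nearest 8.58 CPM), Nefl (519.8 CPM, nearest 452 CPM) and Cck (169 CPM, nearest 109 CPM). PS/E3H replicate 1 lay below its group for C4b (145 CPM, nearest 353 CPM). PS/E4H replicate 1 lay above its group for Itgax (39.0 CPM, nearest 21.2 CPM), Cst7 (23.8 CPM, nearest 12.02 CPM), C1qa (228 CPM, nearest 184 CPM), Mmp3 (4.98 CPM, nearest 0.341 CPM) and Lcn2 (57.6 CPM, nearest 9.05 CPM). PS/E4H replicate 1 lay below its group for Nr4a3 (16.8 CPM, nearest 20.5 CPM) and Ebp (14.1 CPM, nearest 19.0 CPM). PS/E2H replicate 4 lay above its group for Snap25 (2300 CPM, nearest 2028 CPM), Htr3a (10.2 CPM, nearest 8.87 CPM), Maff (14.4 CPM, nearest 3.30 CPM) and Fkbp5 (189.7 CPM, nearest 66.5 CPM). PS/E2H replicate 4 lay below its group for Palm3 (0.742 CPM, nearest 1.79 CPM) and Idi1 (16.9 CPM, nearest 25.7 CPM). PS/E2H replicate 3 lay above its group for Mmp3 (2.06 CPM, nearest 0.236 CPM), Atp6v0d2 (2.94 CPM, nearest 0.513 CPM) and Bcl11b (59.4 CPM, nearest 54.5 CPM). PS/E3H replicate 4 lay above its group for Mmp3 (21.1 CPM, nearest 1.82 CPM). PS/E3H replicate 4 lay below its group for Pclo (115 CPM, nearest 137 CPM) and Map1b (518 CPM, nearest 632 CPM). PS/E3H replicate 2 lay below its group for Lrrtm4 (26.1 CPM, nearest 29.9 CPM), Sgk1 (57.6 CPM, nearest 211 CPM) and Nr3c1 (100.9 CPM, nearest 108 CPM). PS/E2H replicate 2 lay above its group for Grm2 (32.7 CPM, nearest 26.1 CPM) and Pmvk (42.5 CPM, nearest 33.8 CPM). PS/E4H replicate 3 lay above its group for Camk2a (2123 CPM, nearest 1533 CPM). PS/E4H replicate 4 lay below its group for Kif5a (1269 CPM, nearest 1626 CPM) and Nefh (94.1 CPM, nearest 116 CPM). PS/E3H replicate 3 lay above its group for Sp4 (24.7 CPM, nearest 7.71 CPM).

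Grin1, the obligatory NMDA receptor subunit gene, differed between lines without adjustment (edgeR's interaction test gave 0.00731 unadjusted and 0.506 adjusted over all genes). Every PS/E2H mouse was above all E2H mice, and every PS/E4H mouse was below all E4H mice.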

How the results depend on the processing

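No called direction was reversed in any alternative, and of the 1056 alternative values of counts, 920 were within 1.5 times the reported count. The list counts for cholesterol synthesis, disease-associated microglia, reactive astrocytes and glucocorticoid response stayed within it in every alternative run. The cause of the other changes was not tested. By DESeq2 there were 74 genes with an interaction, 357 lowered genes within E2H, 761 raised genes within E2H, 822 lowered genes within E3H and 1106 raised genes within E3H. By limma-voom there were 168 lowered genes past 2-fold. With libraries scaled to the pan-neuronal genes there were 622 lowered genes, 5025 raised genes, 55 lowered genes past 2-fold, 1 lowered pan-neuronal gene, 6 lowered excitatory neuron genes, 5 lowered hippocampal subfield genes, 7 lowered synaptic vesicle and release genes, 10 lowered glutamate receptor genes, 6 lowered postsynaptic scaffold genes, 9 lowered voltage-gated and leak channel genes, 7 lowered neurotrophin and plasticity genes, 33 raised oxidative phosphorylation genes, 22 lowered genes within E2H, 1232 raised genes within E2H, 160 lowered genes within E3H, 343 lowered genes within E4H and 2654 raised genes within E4H. With no filter on low counts there were 64 lowered genes within E2H and 202 lowered genes within E3H. With at least 1 CPM required in 9 mice there were 15 lowered genes past 2-fold and 301 raised genes past 2-fold. By limma on log2(FPKM + 1) there were 4 lowered genes past 2-fold, 79 raised genes past 2-fold and 737 lowered genes within E3H. By limma on log2(FPKM + 0.1) there were 29 lowered genes past 2-fold, 265 raised genes past 2-fold and 676 lowered genes within E3H. By limma on log2(FPKM + 1) with no filter there were 0 lowered genes past 2-fold, 78 raised genes past 2-fold, 1 gene with an interaction, 37 lowered genes within E2H, 188 raised genes within E2H and 353 raised genes within E3H. Without the line covariate there were 3 raised oxidative phosphorylation genes. With log2 CPM of Xist as a covariate there were 3 raised oxidative phosphorylation genes. With log2 library size as a covariate there were 901 lowered genes, 1427 raised genes, 34 lowered genes past 2-fold, 3 lowered pan-neuronal genes, 5 lowered excitatory neuron genes, 5 lowered hippocampal subfield genes, 10 lowered synaptic vesicle and release genes, 6 lowered postsynaptic scaffold genes, 9 lowered voltage-gated and leak channel genes, 4 lowered immediate early genes, 5 lowered neurotrophin and plasticity genes and 1 raised oxidative phosphorylation gene. Without the E2H line there were 129 lowered genes past 2-fold, 25 raised oxidative phosphorylation genes and 607 lowered genes within E3H. Without the E3H line there were 890 lowered genes, 1417 raised genes, 42 lowered genes past 2-fold, 3 lowered pan-neuronal genes, 7 lowered excitatory neuron genes, 3 raised inhibitory neuron genes, 11 lowered synaptic vesicle and release genes, 9 lowered postsynaptic scaffold genes, 12 lowered voltage-gated and leak channel genes, 4 lowered immediate early genes, 8 lowered neurotrophin and plasticity genes, 0 raised oxidative phosphorylation genes and 68 lowered genes within E2H. Without the E4H line there were 535 lowered genes, 1129 raised genes, 19 lowered genes past 2-fold, 331 raised genes past 2-fold, 1 lowered pan-neuronal gene, 5 lowered excitatory neuron genes, 1 raised inhibitory neuron gene, 4 lowered hippocampal subfield genes, 7 lowered synaptic vesicle and release genes, 9 lowered glutamate receptor genes, 4 lowered postsynaptic scaffold genes, 8 lowered voltage-gated and leak channel genes, 4 lowered neurotrophin and plasticity genes, 0 raised oxidative phosphorylation genes, 48 lowered genes within E2H and 241 lowered genes within E3H. Without the 4 libraries with Ddx3y there were 4 lowered pan-neuronal genes, 10 lowered excitatory neuron genes, 3 raised oxidative phosphorylation genes, 5 genes with an interaction, 63 lowered genes within E2H, 573 lowered genes within E4H and 885 raised genes within E4H. Without the 3 libraries apart on the second component there were 132 lowered genes past 2-fold, 22 raised oxidative phosphorylation genes, 1 gene with an interaction, 19 lowered genes within E2H, 252 raised genes within E2H and 641 lowered genes within E3H. Tested against a 1.2-fold change there were 210 lowered genes and 874 raised genes. Leaving out single mice gave 8 to 18 lowered excitatory neuron genes, 2 to 24 raised oxidative phosphorylation genes, 0 to 5 genes with an interaction, 37 to 156 lowered genes within E2H, 179 to 530 raised genes within E2H, 50 to 690 lowered genes within E3H, 292 to 999 raised genes within E3H, 296 to 1426 lowered genes within E4H and 719 to 1749 raised genes within E4H. The lowest within-line counts came without E2H replicate 3, E3H replicate 1 and E4H replicate 2. An interaction was called in 5 genes without PS/E4H replicate 3, 3 without PS/E4H replicate 1 and 1 without E2H replicate 2 or E4H replicate 1.

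No pairing by replicate number was seen over all genes: residuals of mice sharing a number across groups correlated at -0.12 to 0.0955 (48 pairs, 0 over 0.1). Those of mice with other numbers correlated at -0.142 to 0.109 (135 pairs, 1 over 0.1). A pairing confined to some genes was not tested. With the replicate block 1678 genes were lower and 2135 higher, and 3 oxidative phosphorylation genes were raised. The 4 libraries with Ddx3y and the 3 libraries apart were left out by choices made after seeing the data. Within a line, 3 parental mice limit the precision, and a fold change in genes under 1 CPM rests on few reads.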
